A study of Mus musculus with 933 samples.

Results

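The genes described here are those whose symbols begin with Usp17l, Tdpoz, Pramef or Pramel, which makes 20 of the 23845 genes listed in the expression tables. They comprise 5 Usp17l genes, 4 Tdpoz genes, 5 Pramef genes and 6 Pramel genes, and all 20 were listed in every one of the 12 tables. They were chosen by name, as families with many copies in the mouse genome of which several are known for a burst of transcripts in the 2-cell embryo. Earlier results of these data were known when they and the other gene lists below were chosen.

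The study measured 933 single mouse embryos of the FVB strain by Smart-seq2, a full-length RNA-seq protocol for very small samples. Every embryo came from ICSI, the injection of 1 sperm into the cytoplasm of an egg. Sperm of 3 origins were used: testis, caput (the part of the epididymis that sperm enter first) and cauda (where they are stored). Below, a caput, cauda or testis embryo is one made with sperm from that place. The 2-cell embryos were collected at 18 h (19 caput and 25 cauda), 24 h (11 caput and 8 cauda) and 28 h after ICSI (25 caput and 24 cauda). Caput was compared with cauda in a first 4-cell cohort (32 and 32 embryos), at the 8-cell stage (28 and 25), in a first morula cohort (29 and 31) and in a first (35 and 42) and a second blastocyst cohort (34 and 39). Testis was compared with cauda in 4-cell embryos (34 and 33), morulae (34 and 34) and blastocysts (28 and 29). In a 4-cell injection cohort, caput embryos received the RNA labelled EpiM miRNA (22 embryos) or EpiM tRF (21), beside caput (23) and cauda embryos (23) with none. A blastocyst injection cohort had the same design (30, 30, 32 and 31). In a further blastocyst cohort, caput embryos received EpiM small RNA (25) or GFP as the injection control (26), beside cauda embryos with no injection (39). RNA was injected 3 hours after ICSI. The labels give each embryo as a separate sample but not the males, females or sperm preparations behind it, so p-values measure the spread between embryos.

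In the mouse, the embryo's own genome is switched on mainly at the 2-cell stage, while RNA stored in the egg is destroyed. A set of genes, many in tandem arrays, is read in this window under transcription factors that include Dux and the Obox proteins, and is then silenced. Usp17l genes encode deubiquitinating enzymes, which take ubiquitin off proteins. Tdpoz genes encode proteins with TRAF-like and POZ domains related to Spop, an adaptor that brings substrates to a ubiquitin ligase. Pramef and Pramel genes belong to the PRAME family of leucine-rich repeat proteins, whose members are expressed in germ cells and early embryos. Pramel7, and with it Pramel6, is known from mouse embryonic stem cells and the inner cell mass, where Pramel7 drives the degradation of the DNA methylation cofactor Uhrf1.

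In the GRCm38 annotation of RefSeq, the 5 Usp17l genes lie on chromosome 7 between 103.25 and 104.863 Mb, and the 4 Tdpoz genes lie within 175.6 kb on chromosome 3. The 5 Pramef genes and Pramel1, Pramel4 and Pramel5 share a stretch of chromosome 4 from 143.394 to 144.408 Mb. Pramel6 and Pramel7 are neighbours within 21.8 kb on chromosome 2, and Pramel3 is on the X chromosome. RefSeq now lists the Pramef genes under Pramel names: Pramef6 is Pramel11, Pramef8 is Pramel12, Pramef12 is Pramel13, Pramef17 is Pramel14 and Pramef25 is Pramel16. Several copies are so alike that short reads cannot always be told apart. Of all 50-base windows in the longest GENCODE coding transcript, 50.4% in Usp17ld, 44.5% in Usp17lc, 45.1% in Tdpoz1, 73.5% in Pramef17 and 92.6% in Pramel4 also occur in a transcript of another gene. For Usp17lc and Usp17ld the main partner is the other of this pair, for Tdpoz1 it is Gm9117, for Pramef17 it is Gm13128 and for Pramel4 it is Gm13102. No such window is shared by Pramef8, Pramef12, Pramel1, Pramel6 or Pramel7. Only the longest coding transcript of each other gene was searched, not pseudogenes or other isoforms. The search therefore cannot show that reads of these genes match nowhere else. How reads with several matches were counted is not given in the sources used here, so values of the other genes of the 4 families are uncertain as to the copy.

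Promoters were read from 250 bases before to 50 after the annotated start, from RefSeq on GRCm38.p6, and 16 of the 20 genes had an entry. They are shown because some copies of a family share long stretches of promoter. Such sharing did not simply follow distance. Usp17la shares a longer run with the more distant Usp17ld (76 bases) than with Usp17lb, the pair printed here. Usp17lc and Usp17ld share a run of 90 bases, and the neighbours Pramel6 and Pramel7 one of 10. Usp17la and Usp17lb, both on chromosome 7, share an unbroken run of 47 bases, printed in capitals, that begins 107 bases before the start of Usp17la and 92 before that of Usp17lb. The Usp17la window is chr7:104856766-104857065 on the plus strand and the Usp17lb window is chr7:104842534-104842833 on the minus strand.
Usp17la: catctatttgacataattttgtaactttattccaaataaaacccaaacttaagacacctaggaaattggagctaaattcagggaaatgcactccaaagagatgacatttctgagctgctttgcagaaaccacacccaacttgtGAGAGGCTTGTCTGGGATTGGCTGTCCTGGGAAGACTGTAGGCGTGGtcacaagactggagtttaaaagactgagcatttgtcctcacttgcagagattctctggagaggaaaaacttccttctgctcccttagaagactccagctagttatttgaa
Usp17lb: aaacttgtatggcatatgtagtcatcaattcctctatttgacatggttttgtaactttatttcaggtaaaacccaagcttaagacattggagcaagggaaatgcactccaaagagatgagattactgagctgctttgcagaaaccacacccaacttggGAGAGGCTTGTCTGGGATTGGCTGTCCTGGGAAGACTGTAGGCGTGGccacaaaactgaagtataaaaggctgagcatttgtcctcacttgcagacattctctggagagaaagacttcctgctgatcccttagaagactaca

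The motif searched for the 2-cell factor Dux, TGATT followed by any base and AATCA, was found on neither strand in any of the 16 promoters, and 0.0335% of all 32851 promoters hold it. The core TAATCC bound by Obox and related homeodomain factors was found on either strand in 4 of the 16, or 25%, against 7.06% of all promoters. The Dux motif contains neither TAATCC nor its reverse complement. Below, capitals mark TAATCC or its reverse complement GGATTA. The matches lie 118 bases before the start in Tdpoz1, 103 before it in Pramef6, 88 before it in Pramel4 and 103 before it in Pramel5. The windows are chr3:93676234-93676533 (minus strand) for Tdpoz1, chr4:143900331-143900630 (minus) for Pramef6, chr4:144058875-144059174 (plus) for Pramel4 and chr4:144280417-144280716 (minus) for Pramel5. The Pramel4 and Pramel5 windows also share an unbroken run of 111 bases, which lies farther from the start than the match. The match itself lies in a further, shorter stretch that reads the same in both windows. The matches of Pramel4 and Pramel5 are therefore not independent in the count of 4. A match is a stretch of letters and was not measured as a binding site.
Tdpoz1: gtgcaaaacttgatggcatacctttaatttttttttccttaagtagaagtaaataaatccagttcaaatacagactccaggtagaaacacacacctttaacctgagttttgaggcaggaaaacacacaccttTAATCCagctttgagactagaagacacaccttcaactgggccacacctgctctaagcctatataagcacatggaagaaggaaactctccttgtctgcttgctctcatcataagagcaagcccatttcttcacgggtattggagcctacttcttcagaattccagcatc
Pramef6: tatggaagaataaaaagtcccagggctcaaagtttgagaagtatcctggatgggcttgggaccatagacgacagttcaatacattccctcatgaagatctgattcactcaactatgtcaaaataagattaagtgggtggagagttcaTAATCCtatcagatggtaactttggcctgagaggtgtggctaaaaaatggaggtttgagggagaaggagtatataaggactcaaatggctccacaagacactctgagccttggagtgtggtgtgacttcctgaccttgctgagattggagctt
Pramel4: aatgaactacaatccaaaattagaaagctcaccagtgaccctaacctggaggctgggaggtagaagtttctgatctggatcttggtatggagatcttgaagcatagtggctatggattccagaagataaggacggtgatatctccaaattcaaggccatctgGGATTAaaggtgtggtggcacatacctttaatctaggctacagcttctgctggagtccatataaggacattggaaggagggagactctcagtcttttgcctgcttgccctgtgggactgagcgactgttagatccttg
Pramel5: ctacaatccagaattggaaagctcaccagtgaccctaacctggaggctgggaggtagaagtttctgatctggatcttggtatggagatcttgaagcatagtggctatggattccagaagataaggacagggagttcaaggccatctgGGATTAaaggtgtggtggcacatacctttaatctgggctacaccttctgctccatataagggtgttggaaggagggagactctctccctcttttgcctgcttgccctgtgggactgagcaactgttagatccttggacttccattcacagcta

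Expression is in TPM, a share of each library's transcripts scaled by transcript length, so a gene can differ in TPM because other transcripts came or went. TPM keeps no read depth, and the depth of each library is unknown. In 12 separate tables, between 4864 and 12629 genes per embryo reached 1 TPM, and levels set side by side across tables are descriptions only. Of 10 cumulus and granulosa cell markers, 3 were tested between 28 h and 18 h, of which 1 rose (Amhr2) and 1 fell (Cyp19a1). The markers Amh and Inha were at or near 0 in 2-cell embryos. Cyp19a1, the aromatase gene, averaged 2.84 TPM at 28 h and 12.4 TPM at 18 h. The summed level of the list was 20.1 to 217 TPM in caput embryos and 6.14 to 183 TPM in cauda embryos at 28 h, against 4.99 to 27.4 and 1.15 to 35.8 TPM at 18 h. Amhr2 alone, a hormone receptor gene, averaged 116 TPM at 28 h and 0.39 TPM at 18 h. Of 6 sperm transcripts, Prm2 alone reached the level for testing between 28 h and 18 h. The summed level of 14 oocyte transcripts averaged 16662 ± 3943 TPM at 28 h and 23709 ± 1786 TPM at 18 h (SD, n = 49 and 44). Their part in the changes between times was not tested. In all, 3 libraries stood apart. Cauda replicate 1 at 28 h had 29085 TPM of oocyte transcripts, above the highest embryo at 18 h (28903 TPM), with Pramel6 and Pramel7 at 0. Cauda replicate 23 at the 8-cell stage had 16774 TPM of oocyte transcripts, where the median of 8-cell embryos was 203 TPM. Cauda replicate 18 of the testis morula cohort had 4864 genes at 1 TPM.

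Between 18 h and 28 h, 19 of the 20 genes rose and Pramef12 fell. On the log2(TPM + 1) scale, which understates low genes such as Pramel1, the largest rises were those of Pramel7, Pramel6 and Tdpoz2, and the smallest those of Usp17le and Usp17la. The genes did not form a single burst: 14 of them had their highest group mean at 28 h and Pramef12 at 18 h. The other 5, Pramel4, Pramel5, Pramel6, Pramel7 and Pramef17, had it after the 2-cell stage. The change was tested with limma on log2(TPM + 1), with group and session (a number in the library names, whose meaning the labels do not state) in the model and Benjamini-Hochberg adjustment over 13343 genes; a gene counts as called at an adjusted p under 0.05. Called were 79.4% of all genes tested, 38.9% as higher and 40.5% as lower at 28 h, so a call by itself does not set these genes apart. Their median change was 2.50 on the log2 scale, against -0.06 over all genes. Together the 20 genes made up 0.135% of all TPM at 18 h, 0.269% at 24 h and 0.51% at 28 h on average. The counts were 19 higher and 1 lower also without cauda replicate 1. At an unadjusted p under 0.05 there were all 20 genes, and 80.5% of all genes tested. Each library is a whole embryo, so more RNA per cell and more cells with the RNA cannot be told apart.

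The 24 h embryos all came from 1 session of their own, while the 18 h and 28 h embryos shared 3 sessions. Time and session cannot be told apart at 24 h, so these levels are given without a test. The module mean, the average of log2(TPM + 1) over the 20 genes, was 4.28 ± 0.62 at 18 h, 5.65 ± 0.40 at 24 h and 6.69 ± 0.72 at 28 h (SD, n = 44, 19 and 49). At 28 h it ran from 6.33 to 7.67 in caput embryos, all above the highest 18 h embryo at 5.74. In cauda embryos at 28 h it reached 7.64, and cauda replicate 1 had 2.36, below the lowest 18 h embryo at 2.99.

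Among the deubiquitinase genes, Usp17lb was the most abundant. In caput embryos its lowest, median and highest level were 18.8, 118 and 337 TPM at 18 h, 225, 518 and 1033 TPM at 24 h, and 392, 836 and 3335 TPM at 28 h. In cauda embryos they were 63.5, 188 and 501 TPM at 18 h, 349, 587 and 778 TPM at 24 h, and 11.1, 828 and 1505 TPM at 28 h. Of the 49 embryos at 28 h, 44 lay above every embryo at 18 h. Such counts of embryos, here and below, were not made over all genes, so they do not set these genes apart. The rise was 2.47 ± 0.19 on the log2 scale (SE, limma, adjusted p = 3.9e-23). The top value, 3335 TPM, came from caput replicate 18, where the next caput embryo had 1367 TPM and the highest cauda embryo 1505 TPM. Usp17lc rose by 1.48 ± 0.13 and Usp17ld by 1.36 ± 0.13 on the same scale, with means of 163 and 115 TPM at 28 h, against 58.1 and 44.9 TPM at 18 h. Usp17la averaged 72.3 TPM at 28 h and 63.8 TPM at 18 h, a rise of 0.43 ± 0.17 (adjusted p = 0.015). Usp17le averaged 53.2 TPM at 28 h and 47.0 TPM at 18 h, a rise of 0.33 ± 0.14 (adjusted p = 0.028). For both, 1 of 49 embryos at 28 h lay above all at 18 h, so the times overlapped almost fully. Without the session day122, neither rise passed the threshold (adjusted p = 0.24 for Usp17la and 0.15 for Usp17le), and without session day126 the adjusted p of Usp17le was 0.082.

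All 4 Tdpoz genes rose. Tdpoz4 ran at 22.8, 105 and 282 TPM (lowest, median, highest) in caput embryos at 18 h, at 134, 341 and 488 TPM at 24 h and at 427, 987 and 2026 TPM at 28 h. In cauda embryos it ran at 54.8, 123 and 353 TPM at 18 h, at 201, 355 and 688 TPM at 24 h and at 14.3, 979 and 2489 TPM at 28 h. Apart from cauda replicate 1, all 28 h embryos lay above all 18 h embryos, the lowest having 427 TPM and the highest 18 h embryo 353 TPM. The rise was 3.08 ± 0.18 on the log2 scale (limma, adjusted p = 2.8e-31). Tdpoz1 separated the times in the same way, with a mean of 195 TPM at 28 h and 12.5 TPM at 18 h. Tdpoz2 averaged 430 ± 285 TPM at 28 h and 17.2 ± 16.4 TPM at 18 h (SD, n = 49 and 44), a rise of 4.78 ± 0.26, the largest of this family. Tdpoz3 started higher, at 145 ± 142 TPM, and reached 677 ± 343 TPM at 28 h, a rise of 2.53 ± 0.22. In Tdpoz3, 19 of 49 embryos at 28 h lay above every 18 h embryo, against 48 of 49 for Tdpoz4.

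The Pramef genes parted ways. Pramef25 had 3.68, 39.01 and 87.9 TPM (lowest, median, highest) in caput embryos at 18 h, 75.0, 188 and 349 TPM at 24 h and 274, 443.7 and 668 TPM at 28 h. Its values in cauda embryos were 13.8, 58.3 and 150 TPM at 18 h, 125, 235 and 305 TPM at 24 h and 30.7, 412 and 792 TPM at 28 h. It rose by 3.35 ± 0.16 on the log2 scale (limma, adjusted p = 4.1e-39), with no overlap of the times apart from cauda replicate 1. Pramef17 averaged 72.8 ± 38.5 TPM at 28 h and 3.30 ± 2.91 TPM at 18 h, a rise of 4.15 ± 0.25. Pramef6 rose by 0.96 ± 0.19 and Pramef8 by 0.98 ± 0.17 on the log2 scale. For Pramef6 the times overlapped, with 2 of 49 embryos at 28 h above every 18 h embryo.

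Pramef12, known in mouse as a factor of spermatogonial stem cells, was the one gene that fell. Its lowest, median and highest values in caput embryos were 178, 473 and 796 TPM at 18 h, 193, 353 and 477 TPM at 24 h and 48.9, 144 and 446 TPM at 28 h. In cauda embryos they were 262, 460 and 652 TPM at 18 h, 183, 266 and 453 TPM at 24 h and 90.8, 171 and 302 TPM at 28 h. Of 49 embryos at 28 h, 30 lay below every 18 h embryo. The change was -1.49 ± 0.10 on the log2 scale (limma, adjusted p = 1.5e-26). In cauda replicate 1 at 28 h, where Tdpoz4, Pramef25 and Pramel7 were below all other embryos of the group, Pramef12 was at 187 TPM, inside the range of its group.

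Pramel7 and Pramel6 began near 0 and rose most. Pramel7 had 0, 4.18 and 19.8 TPM (lowest, median, highest) in caput embryos at 18 h, 0, 49.7 and 155 TPM at 24 h and 24.1, 281 and 678 TPM at 28 h. In cauda embryos it had 0, 5.30 and 15.7 TPM at 18 h, 15.8, 111 and 193 TPM at 24 h and 0, 255 and 970 TPM at 28 h. The rise was 5.36 ± 0.28 on the log2(TPM + 1) scale (limma, adjusted p = 2.2e-35), and that of Pramel6 was 5.09 ± 0.26 (adjusted p = 3.3e-36). Pramel6 averaged 125 ± 64.2 TPM at 28 h and 3.72 ± 5.21 TPM at 18 h. Pramel5 rose by 3.69 ± 0.19 and Pramel4 by 2.67 ± 0.20, with means of 58.5 and 48.6 TPM at 28 h, against 3.97 and 7.03 TPM at 18 h. Apart from cauda replicate 1, Pramel7 and Pramel5 had no overlap of the times. Their lowest other 28 h embryos had 24.1 and 14.1 TPM, and their highest 18 h embryos 19.8 and 11.5 TPM. Pramel1 and Pramel3 stayed low. Pramel1 averaged 7.82 TPM at 28 h and 0.19 TPM at 18 h, and reached 1 TPM in 43 of 49 and 2 of 44 embryos. Pramel3 averaged 5.53 TPM at 28 h and 0.75 TPM at 18 h, and its median at 28 h was 0.98 TPM.

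**Figure D1:**
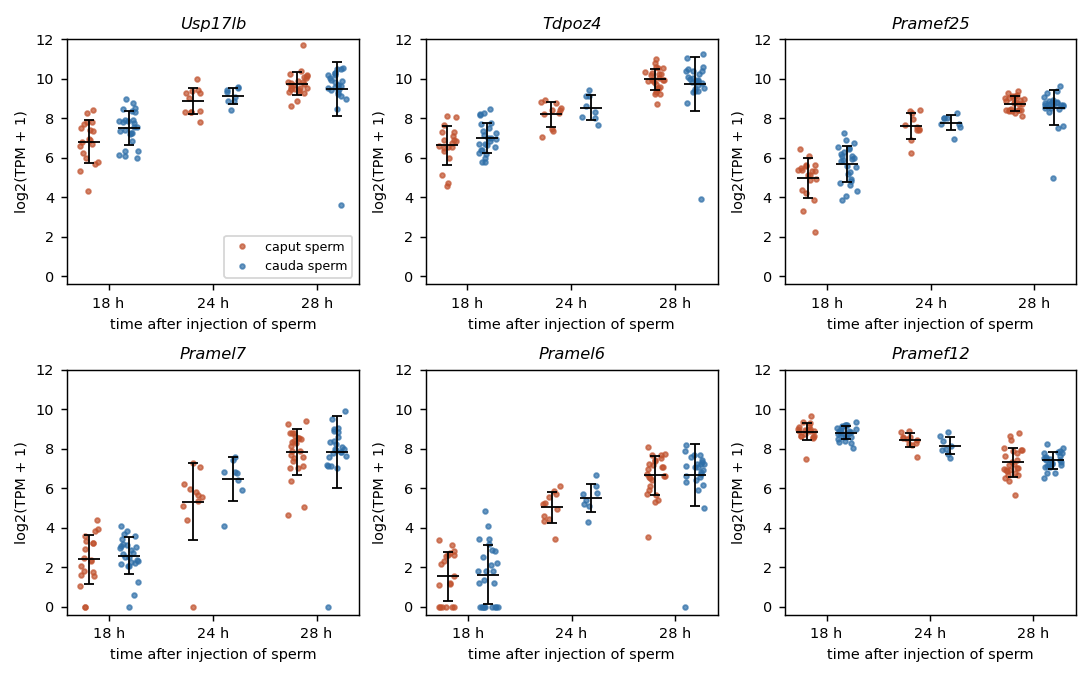
Levels of 6 of the genes in single 2-cell embryos as log2(TPM + 1), by time after ICSI (x axis) and by sperm source (orange caput, blue cauda); black bars give the mean and SD of each group. Usp17lb, Tdpoz4, Pramef25, Pramel7 and Pramel6 are higher at 28 h than at 18 h and Pramef12 is lower, with cauda replicate 1 as the low blue point at 28 h in the first 5 panels.

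Other genes of the same window were looked at as lists. Of all genes tested, 38.9% were called higher and 40.5% lower at 28 h, so a call by itself does not set a list apart. Of 33 other genes known from the 2-cell burst, 30 were tested, of which 22 rose and 8 fell by 28 h, with a median change of 1.54 on the log2 scale. Zscan4d, which encodes a zinc-finger protein of 2-cell embryos, averaged 317 TPM at 18 h, 630 TPM at 24 h and 248 TPM at 28 h, so its highest mean was at 24 h. Dux averaged 127 TPM at 18 h, 15.2 TPM at 24 h and 7.41 TPM at 28 h. Of 15 Spop-related genes without the Tdpoz name, 6 were tested, and 4 rose while none fell (median 2.51). The most abundant of them were Gm10697 with 2259 TPM and Gm10696 with 1218 TPM at 28 h, both above Tdpoz4. Of 26 PRAME-family genes under other names, 22 were tested, and 10 rose while 12 fell (median -1.12). D5Ertd577e, Gm13119 and Gm13078 are in both this list and that of the 2-cell burst. C87977, Oog3 and Gm13023 led this list at 28 h, at 1174, 966 and 791 TPM, and all 3 fell, C87977 by 2.04 and Oog3 by 2.00 on the log2 scale. Comparing levels between genes rests on TPM being scaled per transcript length.

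The rise was seen from both sperm sources. Within caput embryos, 19 genes rose and Pramef12 fell, where 68.9% of all 13537 genes were called, 37% as higher. All 20 had an unadjusted p under 0.05 there, as had 71% of all genes. Within cauda embryos, 16 rose, 1 fell and 3 were not called, where 72.3% of 13249 genes were called, 33.6% as higher. There, 17 had an unadjusted p under 0.05, as had 74.2% of all genes. Without cauda replicate 1, 17 rose. The 3 were Pramef6 with 0.47 ± 0.25, Usp17la with 0.11 ± 0.23 and Usp17le with -0.12 ± 0.20 on the log2 scale. Their changes in caput embryos were 1.45 ± 0.27, 0.75 ± 0.24 and 0.79 ± 0.21. The test of the difference between the sperm sources, the interaction of time and source in limma, called none of the 20 genes and 0% of 13343 genes. At an unadjusted p under 0.05 it had 7 of the 20 genes and 9.37% of all genes. The estimate was above 0, with the larger rise in caput embryos, for 18 of the 20 genes, with a median of 0.53, against 0.12 over all genes. That count was 13 of 20, with a median of 0.39, without cauda replicate 1, and 14 of 20, with a median of 0.39 against 0.00 over all genes, after rescaling libraries by the median ratio. The lowest adjusted p of the interaction was 0.37, for Usp17le (0.90 ± 0.29).

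**Figure D2:**
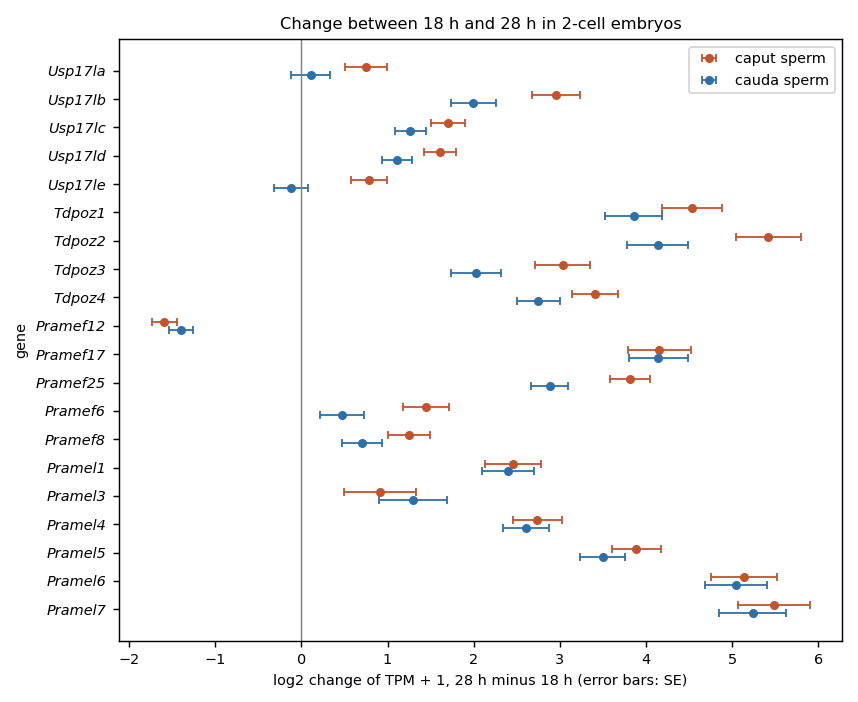
Change of each gene between 18 h and 28 h, as the log2 change of TPM + 1 with its SE (x axis), in caput (orange) and cauda embryos (blue). The changes run from -1.59 for Pramef12 to 5.48 for Pramel7 in caput embryos, and Usp17la and Usp17le in cauda embryos lie near 0.

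At 18 h the genes were on the whole lower in caput than in cauda embryos, but none was called. Limma called 0 of 19 tested genes and 0% of 12899 genes in all. At an unadjusted p under 0.05 there were 7 of the 19 (36.8%), all lower in caput, against 3.22% of all genes. Without session day126 there were 2 of the 19, against 2.09% of all genes. The estimate was below 0 for 16 of 19, with a median of -0.42, against -0.03 over all genes. The estimates of different genes are not independent, since copies can share reads and some of the genes rise together between embryos. The 7 genes were Usp17lb, Usp17ld, Usp17le, Tdpoz2, Tdpoz3, Pramef25 and Pramef6. Usp17le averaged 35.0 ± 17.9 TPM in caput embryos and 56.1 ± 29.2 TPM in cauda embryos (SD, n = 19 and 25), a difference of -0.71 ± 0.21 on the log2 scale (unadjusted p = 0.00096, adjusted p = 1). Pramef25 averaged 36.7 ± 20.1 TPM in caput embryos and 59.7 ± 34.8 TPM in cauda embryos, and 17 of 19 caput embryos lay below the cauda median. Tdpoz2 averaged 10.9 ± 7.86 TPM in caput embryos and 22.0 ± 19.5 TPM in cauda embryos, a difference of -1.03 ± 0.38. The ranges of caput and cauda embryos overlapped for each of these genes. Usp17la, Usp17lb, Usp17le, Tdpoz2, Tdpoz3, Tdpoz4, Pramef25 and Pramef6 were lower in caput embryos in 3 of 3 sessions, by the difference of session means. Signs by session were not counted over all genes, so they do not set these genes apart. The 30 tested genes of the other 2-cell list showed a median of -0.39 in this comparison, with none called.

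At 28 h limma called none of the 20 genes, and 0.0759% of 13179 genes, and none of the 20 had an unadjusted p under 0.05 (11.7% of all genes did). The median of the 20 was 0.17, against 0.09 over all genes, and 15 of 20 estimates were above 0. The lean to higher values in caput rested on 1 library: without cauda replicate 1, 6 of 20 were above 0, with a median of -0.04, against 0.07 over all genes. After median ratio scaling 12 of 20 were above 0, with a median of 0.05, against -0.01 over all genes. At 24 h none of the 20 was called, and 0.00746% of 13400 genes, with a median of -0.18. Only Pramef17 had an unadjusted p under 0.05 (-1.15 ± 0.56), against 5.49% of all genes. Whether the 18 h and 28 h differences themselves differ is the interaction given above, which called none.

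**Figure D3:**
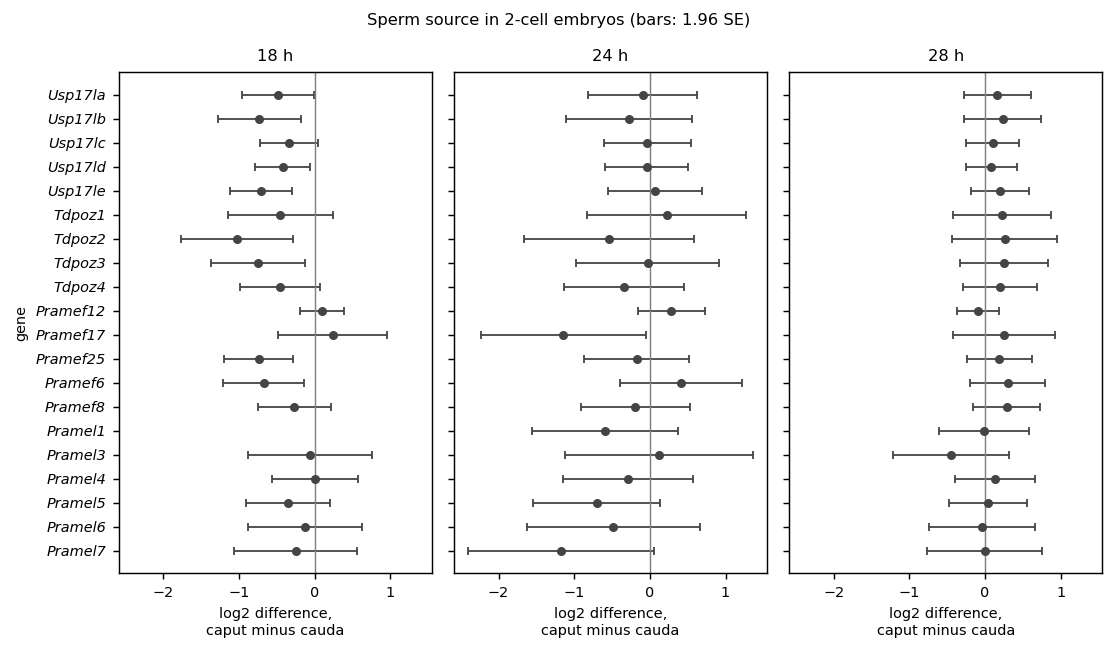
Difference between caput and cauda embryos in each gene at 18, 24 and 28 h, as log2 of TPM + 1 (x axis), with bars of the 95% interval from the SE. At 18 h most points lie left of 0, at 28 h 15 of 20 lie right of it (6 of 20 without cauda replicate 1), and Pramel1 at 18 h is missing because it was too low to test.

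Single embryos of 1 time differed widely. Usp17lb, Tdpoz4 and Pramef25, each the most abundant gene of its family at 28 h, rose and fell together among them. Pramel7, that of the Pramel genes, did so less. Only these genes and Zscan4d were compared in this way, not whole families. After removal of group and session means, log2(TPM + 1) of Usp17lb and Tdpoz4 correlated with Pearson's r = 0.75 and Spearman's rho = 0.73 over 44 embryos at 18 h. Both had an adjusted permutation p of at most 4e-05, from 100000 two-sided permutations within group and session. Such p-values are adjusted over 20 correlations, and the raw p of 1e-05 behind these is the smallest that the permutations can give. Tdpoz4 and Pramef25 had r = 0.82 and rho = 0.85 at 18 h. Usp17lb and Zscan4d had r = 0.82 and rho = 0.81, and r = 0.81 without the 2 embryos farthest from the median. Pramel7 had lower correlations at 18 h. With Usp17lb it had r = 0.18 and rho = 0.13 (adjusted permutation p = 0.31 and 0.44). With Tdpoz4 it had r = 0.43 and rho = 0.40 (adjusted permutation p = 0.0067 and 0.010), and r = 0.35 without the 2 farthest embryos. With Pramef25 it had r = 0.42 and rho = 0.44 (adjusted permutation p = 0.0073 and 0.0047), and r = 0.35 without the 2 farthest embryos.

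At 28 h, over 49 embryos, Usp17lb and Tdpoz4 had r = 0.91 and rho = 0.76, and r = 0.73 without the 2 farthest embryos (adjusted permutation p = 8e-05). The r between Usp17lb and Pramel7 was 0.72 (adjusted permutation p = 0.022) but 0.27 without the 2 farthest embryos (adjusted permutation p = 0.21), so the size of r rested on those. Its rho over all embryos was 0.32 (adjusted permutation p = 0.033). Tdpoz4 and Pramel7 had r = 0.71, and 0.23 without the 2 farthest, with rho = 0.34 (adjusted permutation p of rho = 0.021). Pramef25 and Pramel7 had r = 0.79 and rho = 0.56, and r = 0.52 without the 2 farthest embryos (adjusted permutation p = 0.0012). Pramef25 had r = 0.86 with Usp17lb and 0.84 with Tdpoz4, and 0.62 and 0.48 without the 2 farthest embryos. Tdpoz4 and Zscan4d had r = 0.54, and 0.27 without the 2 farthest, with rho = 0.32 (adjusted permutation p of rho = 0.034). Pramef25 and Zscan4d had r = 0.39 and rho = 0.08 (adjusted permutation p = 0.065 and 0.57), and r = -0.02 without the 2 farthest embryos. Pramel7 and Zscan4d had r = 0.08 (adjusted permutation p = 0.66) but rho = -0.38 (adjusted permutation p = 0.016), and r = -0.44 without the 2 farthest embryos (adjusted permutation p = 0.0074). All values of an embryo share 1 library and 1 TPM total.

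After the 2-cell stage the genes split. Setting the mean of the 28 h embryos beside the median of the 4-cell group means, 16 of the 20 were lower at the 4-cell stage, 11 of them at least 10-fold, and 4 were higher. The same counts were not made over all genes, so they do not set these 20 genes apart. These levels come from separate tables and sessions and carry no test. Usp17lc was at 0.53 TPM and Usp17ld at 0.42 TPM at the 4-cell stage, 306-fold and 275-fold below their 28 h means. Pramef25 was at 2.51 TPM and Tdpoz3 at 4.20 TPM, 172-fold and 161-fold below. Each Usp17l gene other than Usp17lb reached 1 TPM in 10% to 12.7% of 220 4-cell embryos, and Usp17lb in 40.9%. At the 8-cell stage the shares for those other genes were 22.6% to 35.8% of 53 embryos. Absence cannot be told apart from a level below what the unknown depth detects.

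Tdpoz4 and Tdpoz2 outlasted their neighbours. Tdpoz4 had group means of 89.8 to 170 TPM at the 4-cell stage, 163 to 196 TPM at the 8-cell stage, 20.0 to 69.4 TPM in morulae and 2.45 to 50.8 TPM in blastocysts. It reached 1 TPM in all 220 4-cell embryos and all 53 8-cell embryos. Tdpoz2 had group means of 14.8 to 44.6 TPM at the 4-cell stage and 95.4 to 96.0 TPM at the 8-cell stage. Its group means were 8.56 to 20.0 TPM in morulae and 4.83 to 19.5 TPM in blastocysts. It still reached 1 TPM in 84.4% of 128 morulae and 83.3% of 420 blastocysts. Tdpoz1 and Tdpoz3 were at 2.64 to 11.0 TPM and 2.09 to 13.2 TPM at the 4-cell stage.

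Pramel4, Pramel5, Pramel6 and Pramel7 had higher group means after 28 h. Pramel7 had its highest group mean, 1133 TPM, in cauda embryos of the first 4-cell cohort, and group means of 326 to 537 TPM in blastocysts. Pramel6 ran at 588 to 792 TPM at the 4-cell stage, 852 to 905 TPM in morulae and 199 to 674 TPM in blastocysts. Pramel4 ran at 164 to 250 TPM at the 4-cell stage and up to 312 TPM in blastocysts, and Pramel5 at 71.0 to 95.1 TPM and up to 292 TPM in morulae. Pramel4, Pramel6 and Pramel7 reached 1 TPM in each of the 220 4-cell embryos, 53 8-cell embryos, 128 morulae and 420 blastocysts. Pramef17 was between 42.7 and 91.3 TPM in the group means from 4-cell to morula. Pramef8 was at 14.8 to 24.3 TPM in those groups, and Pramef12 was at 31.3 to 49.7 TPM at the 4-cell stage and 7.37 to 29.7 TPM in blastocysts. Pramel1 and Pramel3 were at or under 3.29 TPM in all group means after the 2-cell stage.

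**Figure D4:**
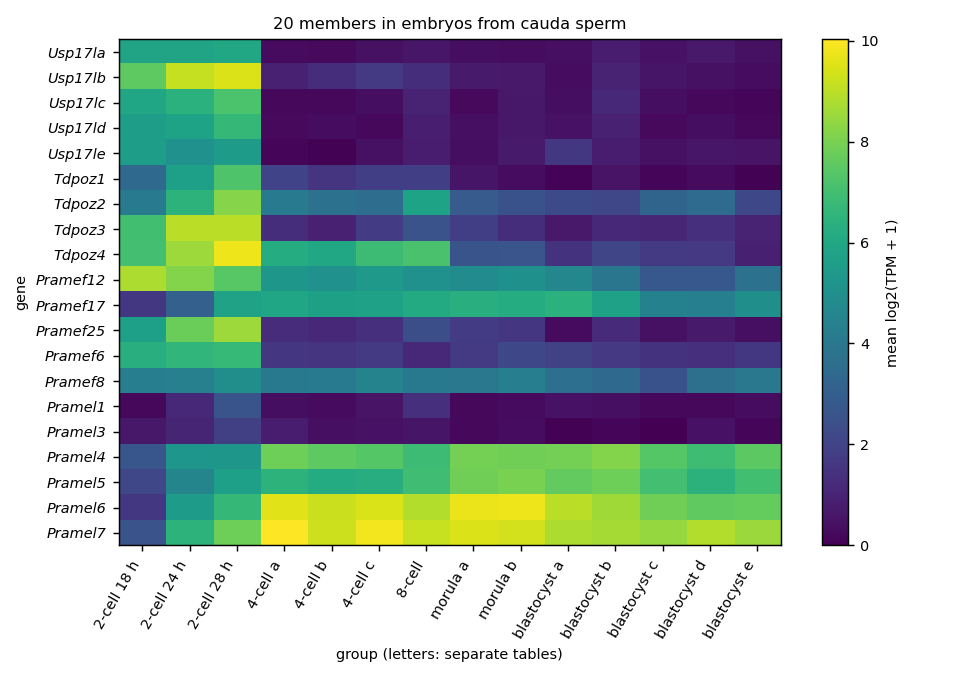
Mean log2(TPM + 1) of the 20 genes (rows) in cauda embryos with no injected RNA (columns, from 2-cell to blastocyst; letters mark separate tables). Usp17l genes are brightest in the 2-cell columns, and Pramel4 to Pramel7 are brightest after the 2-cell stage. Tdpoz4 and Tdpoz2 stay visible to the 8-cell stage, and at lower levels after it.

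A few later embryos had a summed level of Usp17l transcripts, in most of them chiefly Usp17lb, at least as high as that of the lowest 18 h embryo. The lowest summed Usp17l level among the 18 h embryos was 115 TPM, and 13 of 821 later embryos (1.58%, 95% Wilson interval 0.928% to 2.69%) reached it. They were 5 of 220 4-cell embryos, 1 of 53 8-cell embryos, 1 of 128 morulae and 6 of 420 blastocysts. The median summed level was 1.26 TPM in 4-cell embryos and 1.19 TPM in blastocysts. In the 13 embryos Usp17lb alone made up 56.7% to 92.0% of the sum, apart from cauda replicate 21 of the second blastocyst cohort (23.9%). At 18 h Usp17lb averaged 182 TPM, beside 44.9 to 63.8 TPM for each other Usp17l gene. The sum therefore does not show that each Usp17l gene reached its 2-cell level. At 28 h Usp17lb alone averaged 917 TPM, above the Usp17l sum of each of these later embryos. These 13 embryos are described next. They came from 11 groups with 1 or 2 embryos each, so their share was not compared between sperm sources. The highest was replicate 2 of the tRF-injected 4-cell embryos, with 746 TPM of Usp17l, 647 TPM of Tdpoz and 75.3 TPM of Zscan4 transcripts. Caput replicate 9 of the same cohort had 657, 1104 and 335 TPM of the 3 families and 432 TPM of Pramef25 and Pramef6. Cauda replicate 11 at the 8-cell stage had 541, 1871 and 367 TPM. Among blastocysts, cauda replicate 10 of the second cohort had 365 TPM of Usp17l and 1319 TPM of Tdpoz with 0.43 TPM of Zscan4, and cauda replicate 20 of the small RNA cohort had 336 TPM, 177 TPM and 0 TPM. The Tdpoz sum of the 13 embryos was 81.4 TPM or more, where the median was 114 TPM in 4-cell embryos and 10.6 TPM in blastocysts. Blastocyst lineage markers summed to 8493 TPM or more in the 6 blastocysts. Oocyte transcripts summed to 735 to 1987 TPM in the 5 4-cell embryos, where the median of 4-cell embryos was 419 TPM. They summed to 360 TPM in the 8-cell embryo (median 203 TPM), 89.4 TPM in the morula (median 28.0 TPM) and 3.71 to 22.3 TPM in the blastocysts (median 17.7 TPM). Their part in the Usp17l levels was not tested.

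**Figure D5:**
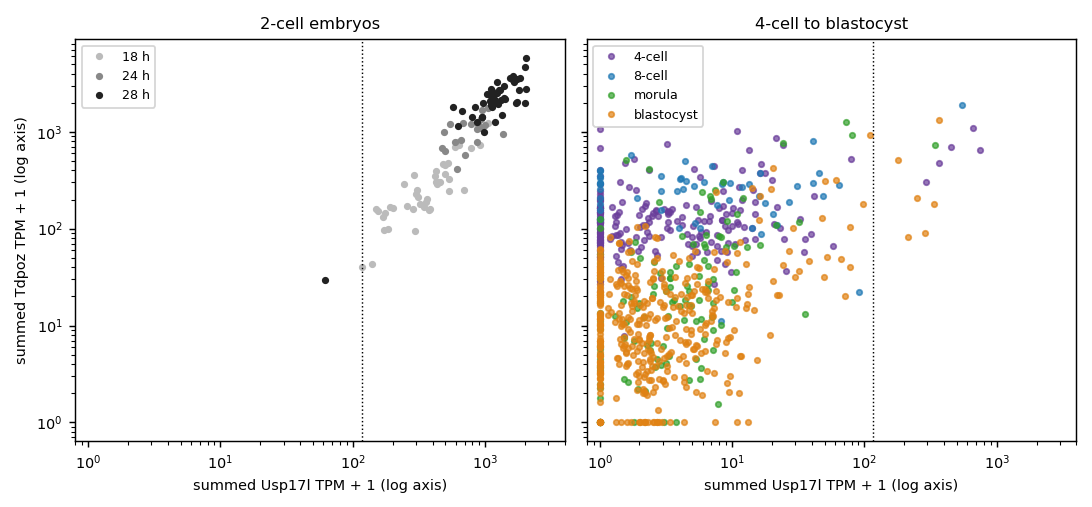
Summed Tdpoz level against summed Usp17l level in each embryo, both as TPM + 1 on log axes, for 2-cell embryos (left; grey to black for 18, 24 and 28 h) and later stages (right, by colour). The dotted line marks the lowest Usp17l sum at 18 h, 115 TPM, which 13 of 821 later embryos reach; cauda replicate 1 at 28 h is the black point left of it.

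Testis morulae gave the only call for sperm source at any stage. Pramel7 had 207, 883 and 1694 TPM (lowest, median, highest) in testis morulae and 284, 690 and 1086 TPM in cauda morulae, with means of 910 ± 278 and 670 ± 189 TPM (SD, n = 34 each). Of 34 testis morulae, 28 lay above the cauda median, but the ranges overlapped. The difference was 0.42 ± 0.11 on the log2 scale (limma, adjusted p = 0.036), and 1 of 16 tested genes was called, where 1.58% of 11790 genes were. It was positive in 4 of 4 sessions, at 0.26, 0.19, 0.80 and 0.48. The call was lost when no filter on low values was used (adjusted p = 0.060), with session means (0.17) and without 3 of the 4 sessions in turn (0.061 to 0.40). Its neighbour Pramel6 averaged 852 ± 213 TPM in testis morulae and 905 ± 219 TPM in cauda morulae, a difference of -0.07 ± 0.10. In the other testis cohorts none was called: 0 of 14 in 4-cell embryos, where 0.0174% of 11471 genes were, and 0 of 12 in blastocysts, where 0% of 12062 genes were. At an unadjusted p under 0.05 there were 1 of 14 in 4-cell embryos (7.51% of all genes) and 0 of 12 in blastocysts (4.71%). In morulae there were 2 of 16 (17% of all genes), Pramel7 and Usp17lb. Pramel7 differed by -0.21 ± 0.15 in testis 4-cell embryos and by 0.03 ± 0.14 in testis blastocysts. Pramef17 averaged 42.7 ± 17.8 TPM in testis 4-cell embryos and 54.9 ± 17.3 TPM in cauda 4-cell embryos, a difference of -0.40 ± 0.14 (adjusted p = 0.50).

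Caput against cauda gave no call by limma among these genes at any later stage. None of 14 was called in the first 4-cell cohort, where 1.12% of all genes were, and none of 14 in the uninjected embryos of the injection cohort, where 0.573% were. None of 19 was called at the 8-cell stage (0% of all genes) and none of 15 in morulae (0.859%). In blastocysts none of 13 was called in the first cohort (2.12% of all genes), none of 16 in the second (0.28%) and none of 11 in the injection cohort (1.84%). At an unadjusted p under 0.05 there were 1 of 14 genes in the first 4-cell cohort (10.5% of all genes) and 2 of 14 in the 4-cell injection cohort (9.36%). There was 1 of 19 at the 8-cell stage (4.59%) and 1 of 15 in morulae (7.5%). Blastocysts had 3 of 13 in the first cohort (19.4%), 2 of 16 in the second (15%) and 1 of 11 in the injection cohort (11.6%). Tdpoz4 averaged 170 ± 202 TPM in caput and 102 ± 119 TPM in cauda embryos of the 4-cell injection cohort, a difference of 0.86 ± 0.37 (adjusted p = 0.44). In morulae, Pramef17 averaged 65.8 ± 33.2 TPM in caput and 86.3 ± 34.5 TPM in cauda embryos, a difference of -0.45 ± 0.15 (adjusted p = 0.23). In the first blastocyst cohort, Pramel6 averaged 674 ± 204 TPM in caput and 548 ± 215 TPM in cauda embryos, a difference of 0.36 ± 0.13 (adjusted p = 0.11). It was 0.38 ± 0.15 in the second cohort and -0.27 ± 0.22 in the injection cohort. Pramel7 differed by 0.44 ± 0.14 in the second blastocyst cohort (adjusted p = 0.15), by -0.03 ± 0.08 in the first and by -0.12 ± 0.15 in the injection cohort.

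Injected RNA changed none of these genes past the threshold. For EpiM miRNA against uninjected caput embryos, limma called 0 of 16 at the 4-cell stage (1.26% of all genes) and 0 of 11 in blastocysts (3.05%). For EpiM tRF it called 0 of 16 (0.00861%) and 0 of 11 (0%), and for miRNA against tRF 0 of 15 (0.822%) and 0 of 11 (1.48%). For EpiM small RNA it called 0 of 11 against GFP-injected caput blastocysts (0.466%) and 0 of 12 against cauda blastocysts (0%), and for GFP against cauda 0 of 11 (0.455%). At an unadjusted p under 0.05 there was 1 gene for tRF against uninjected caput at the 4-cell stage (8.74% of all genes) and 1 in blastocysts (5.97%). There was none for miRNA against uninjected caput at the 4-cell stage (12.8%) or in blastocysts (12.7%), and none for miRNA against tRF (7.69% and 7.15%). For EpiM small RNA there was none against GFP (4.76%) or cauda (10%), and none for GFP against cauda (15.1%). Pramel6 averaged 698 ± 184 TPM in tRF-injected and 588 ± 163 TPM in uninjected caput 4-cell embryos, a difference of 0.28 ± 0.13 (adjusted p = 0.52). Pramef8 averaged 10.3 ± 4.73 TPM in tRF-injected and 14.4 ± 5.41 TPM in uninjected caput blastocysts, a difference of -0.54 ± 0.19 (adjusted p = 0.71). The 95% interval, from the SE, around the miRNA difference of Pramel7 ran from -0.23 to 0.51 in 4-cell embryos and from -0.05 to 0.54 in blastocysts. For Tdpoz4 at the 4-cell stage the corresponding interval ran from -0.74 to 0.71 for miRNA and from -1.35 to 0.14 for tRF. Medians over the tested genes were 0.09 for miRNA and -0.13 for tRF at the 4-cell stage, against -0.04 and -0.07 over all genes. The uninjected caput embryos serve both the miRNA and the tRF comparison and that with cauda, so these differences share samples.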

How the data were processed

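Single embryos were measured by Smart-seq2, per the labels' protocols. The authors deposited 12 tables of TPM values, shares of transcripts that sum to the same total in each library, so no count test was possible. Per the submitters' processing notes, Bowtie and the mm10 build were used; the counting tool and the treatment of reads with several matches are not given in the sources used here. In 27 rows of each table a symbol turned into a date was restored from the transcript ID. A further 4 columns of 1 blastocyst file (blank, or listing library names) were not used. The extract protocol in the labels gives 28 hours for all embryos; times and stages here follow titles and characteristics. The members and all gene lists were chosen with earlier results of these data known.

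limma 3.58.1 in R 4.3.3 was run on log2(TPM + 1), all groups of a table together, with group and session (the number in the library description, read as a date or batch) as terms, trend and robust settings, and Benjamini-Hochberg adjustment over all genes tested. Testing required 1 TPM or more in a number of embryos equal to 50% of the smaller group. Genes were called at an adjusted p under 0.05. A fold on this scale understates the change of low genes. The code was tested on simulated data. Module means and levels are descriptions with no test. Genes were named with values if they averaged at least 5 TPM in a group or were called, which all 20 did. Alternatives were a pseudocount of 0.1, no filter, no session term, embryo number as a block, median ratio scaling, leaving out each session, and session means; chosen after seeing the data were leaving out 3 libraries and fitting each 2-cell time alone. Sequences and positions come from RefSeq GRCm38.p6 and GENCODE M21, the same build as mm10. Depth is unknown, so the Wilson interval covers counting of embryos only. Python 3.11.15, pandas 2.3.3, scipy 1.17.1 and matplotlib 3.10.9 were used.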

Additional observations from a re-analysis of the deposited data

Results flagged for a closer look

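The 24 h cauda embryos are the only group of 4 to 10 embryos, and 21 values were checked there for an embryo far from the rest. There was 1: the highest Usp17la value was 95.1 TPM, where the next embryo had 63.5 TPM and the lowest 39.8 TPM, a gap of 0.571 of the range over 8 embryos. Chance gives such a gap in about 1 of 20 groups. The embryo is part of the comparison of caput with cauda embryos at 24 h, where Usp17la differed by -0.10 ± 0.37 on the log2 scale and was not called.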

How the results depend on the processing

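In the comparison of 28 h with 18 h, including each sperm source alone, the number of the 20 genes called stayed within 1.5 times its value in the alternative fits run, between 15 and 20 genes. With both sperm sources averaged, 19 of the 20 estimates were above 0 in each of these fits; in cauda embryos alone the number was 17 to 19, against 18. Calls were lost, with both sources averaged, by Usp17la and Usp17le without the session of day122, and by Usp17le also without that of day126. The Pramel7 call in testis morulae left 0 genes called with no filter, with session means, and without 3 of its 4 sessions in turn (all but day618); it kept its call without cauda replicate 18. Without 1 session in turn, 1 gene was called in the caput against cauda morulae (Pramef17, lower in caput, adjusted p = 0.032, without day507) and 1 in the first blastocyst cohort (Pramel6, higher in caput, adjusted p = 0.040, without day120), where none was called with all sessions. The share of all genes called in those fits is not given here, so these calls do not set the genes apart. The cause was not tested. Embryo numbers gave no sign of pairing: the medians of correlations between same-numbered embryos ran from -0.10 to 0.05 over 21 comparisons. In 0 of 21 did every such pair correlate over 0.1, a demand that weak or partial pairing would also fail. With the embryo number as a replicate block, the Pramel7 call was also lost (0 called, adjusted p = 0.072), and the block left 20 genes called between 28 h and 18 h. No paired analysis was possible for the small RNA blastocyst cohort because its titles number embryos only within a session. Median ratio scaling moved the median interaction of all genes to 0.00, against 0.12. With each 2-cell time fitted alone, none of the 19 genes was called at 18 h. There, 8 of 19 had an unadjusted p under 0.05, as had 5.61% of all genes. Over the alternatives this number ran from 2 (without session day126, 2.09% of all genes) to 10 (session means, 4.38%). For caput against cauda at 28 h, the number of the 20 estimates above 0 ran from 6 (without cauda replicate 1) to 18 (pseudocount 0.1). Module mean differences moved by less than the spread between embryos in all alternatives run. Outside 28 h against 18 h, that spread was itself larger than each main difference. For caput against cauda at 28 h the difference was 0.11, beside a spread of 0.63. There the check could not show whether a difference held or changed sign. Without counts, depth sets no limit that can be given for genes listed at 0.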
